A study of Mus musculus with 257 samples.

Results

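Medulloblastomas of the Shh type were compared between mice with a floxed Ddx3x allele and mice with the intact gene. The members are the 10 libraries labelled as tumours of BPtchD-FLY (5) and of BPtch (5), out of 257 libraries of mouse cerebellum and tumour in the series. BPtch mice carry Blbp-Cre, a recombinase driven by the promoter of the brain lipid-binding protein gene Fabp7, and an allele of Ptch1 that gives tumours driven by Shh signalling. BPtchD-FLY mice carry the same alleles and are males with 1 floxed copy of the X-linked gene Ddx3x. All 10 tumours carry the age label P30+, meaning postnatal day 30 or later, with no exact day. The recombinase acts in cells with Blbp expression and their descendants, so tumour vessels, immune cells and other cells of the host can keep the intact gene. The labels give no sex for BPtch mice, no copy number of the Ptch1 allele and no sequencing batch. Each tumour has its own animal number, so the p-values measure the spread between animals. BPtchD-FLPlus tumours (5, also labelled P30+), from females with 1 floxed and 1 intact Ddx3x copy, and cerebella of BPtch and BPtchD-FLY mice at embryonic day E16.5 and at the postnatal ages P5, P13 and P30+ (5 libraries per genotype and age) gave context. Of the BPtch cerebella grouped as P13, the titles of replicates 3 and 4 say P14, and these were the 2 libraries of that group with the Xist and Y-gene profile of females.

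Shh signalling drives the division of cerebellar granule neuron progenitors in the external granule layer of the newborn cerebellum. Ptch1 is the receptor that keeps the transducer Smo inactive until a Hedgehog ligand binds, so loss of Ptch1 leaves the Gli transcription factors active, and granule progenitors can then form medulloblastoma. Ddx3x encodes a DEAD-box RNA helicase that helps ribosomes start translation on messenger RNAs with structured leaders, takes part in stress granules and innate immune signalling, and is often mutated in human medulloblastoma. Its copy on the Y chromosome, Ddx3y, encodes a closely related helicase.

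Some libraries stood apart before any gene was compared. BPtchD-FLY tumour 5 lay at one end of the first principal component, which held 48.4% of the variance of the 10 tumours, and held 7435 CPM (counts per 1000000 counts of a library) summed over the choroid plexus list against 70.8 to 645 in the other tumours. BPtch tumour 1 had the Y-gene profile of a female, with 0.109 CPM of Ddx3y and 174.7 CPM of Xist, and the other 9 tumours had the Xist and Y-gene profile of males. Its Xist level was low beside the 1551 to 3418 CPM of BPtchD-FLPlus tumours 1, 3, 4 and 5, though above the 78.3 CPM of BPtchD-FLPlus tumour 2. The P30+ cerebellum of the same animal held 452.1 CPM of Xist. BPtch tumour 3 held 18.4 CPM of Ddx3y, below the other male BPtch tumours. Among the cerebella, BPtchD-FLY P5 replicate 2 went against its label, with 1758 CPM of Xist, 0.303 CPM of Ddx3y and 435.8 CPM of Ddx3x beside 174 to 238.3 in the other 4 libraries of its group. Library totals of the 10 tumours ran from 18292552 to 73694147 counts, and mitochondrial genes held 1.05% to 2.55%.

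Ddx3x was the gene that separated the genotypes most firmly. Its levels were 679.1, 773.7, 628.5, 645.3 and 560.3 CPM in BPtch tumours 1 to 5 and 117.7, 97.7, 77.1, 107 and 149.2 CPM in BPtchD-FLY tumours 1 to 5. All BPtchD-FLY tumours lay below all BPtch tumours. The means were 657 ± 78.1 and 110 ± 26.6 CPM (SD, n = 5 each), so that 16.7% of the BPtch level remained. Ddx3x (ENSMUSG00000000787, chromosome X, 13280970 to 13294052, GRCm38) fell by 2.57 ± 0.19 on the log2 scale (standard error, with a 95% interval from -2.98 to -2.15, edgeR adjusted p = 0.000593). Without each tumour in turn the log2 fold change lay between -2.71 and -2.46, with a highest adjusted p of 0.00606. The counts are per gene, so they do not tell which exons the remaining reads cover, nor whether they come from tumour cells or from host cells with an intact allele. In bulk tissue, fewer cells of a type and less RNA per cell cannot be told apart.

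The 2 copies can be told apart in the counts only as far as their sequences differ, which is shown here for a stretch of the coding sequence. In GENCODE M21 on GRCm38, the coding sequences of Ddx3x (1989 bases) and Ddx3y (1977 bases) were identical at 1671 of 1974 aligned bases (84.7%). The longest identical run was 35 bases. None of the 1940 stretches of 50 bases in the Ddx3x coding sequence was found letter for letter in a Ddx3y transcript. The stretch printed below holds 12 differing positions in 95 bases, in capitals, and spans coding bases 1099 to 1193 of Ddx3x and 1096 to 1190 of Ddx3y, 5′ to 3′.
Ddx3x: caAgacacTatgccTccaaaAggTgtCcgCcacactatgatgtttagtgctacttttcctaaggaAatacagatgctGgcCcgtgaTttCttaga
Ddx3y: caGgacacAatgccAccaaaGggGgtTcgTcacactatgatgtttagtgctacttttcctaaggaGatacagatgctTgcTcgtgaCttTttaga
Stretches of 75 and 100 bases gave 0 exact matches as well.

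Ddx3y (ENSMUSG00000069045, chromosome Y, 1260771 to 1286629, minus strand) was 0.109, 82.2, 18.4, 72.9 and 64.6 CPM in BPtch tumours and 140, 99.2, 80.5, 96.8 and 99.8 CPM in BPtchD-FLY tumours. Of the male-profile tumours, BPtchD-FLY tumour 3 lay within the BPtch range and the other 4 BPtchD-FLY tumours above it. Over all 10 tumours the log2 fold change was 1.12 ± 0.85 and was not called. With male-profile tumours only (4 and 5) it was 0.80 ± 0.36, with a 95% interval from -0.01 to 1.62 (p = 0.0525, edgeR adjusted p = 0.616). The same value in male-profile cerebella was 0.00 for E16.5, 0.47 for P5 (adjusted p = 0.0778), 0.44 for P13 (adjusted p = 0.405) and 0.79 for P30+ (adjusted p = 0.926), none of which was called. Unadjusted edgeR p-values at these ages were 0.997, 0.0142, 0.00736 and 0.329. The 95% interval lay above 0 at P5 (0.12 to 0.81) and P13 (0.15 to 0.74) and held 0 at E16.5 and P30+. The tumour and P30+ values share animals, so they are not separate results. The animal of BPtch tumour 3 had the lowest Ddx3y of the male-profile BPtch libraries in both. It held 18.4 CPM in the tumour and 7.70 CPM in the cerebellum. The summed level of Ddx3x and Ddx3y was 624.9 to 855.9 CPM in BPtch tumours and 157.5 to 257.9 CPM in BPtchD-FLY tumours, with no overlap.

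**Figure D1:**
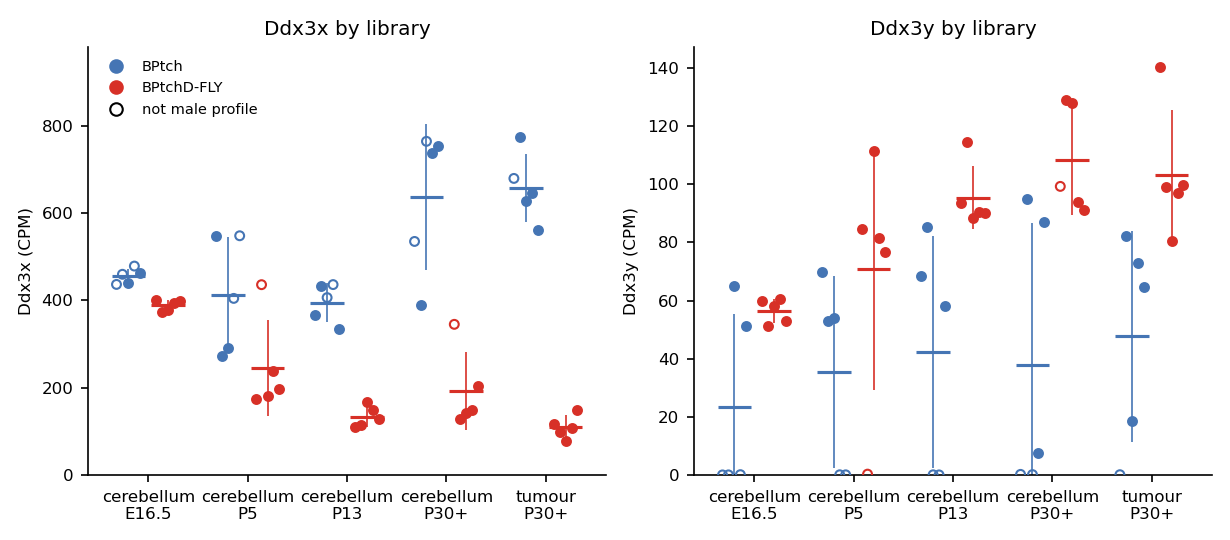
Level of Ddx3x (left) and Ddx3y (right) in CPM in each library of BPtch (blue) and BPtchD-FLY (red) by tissue and age, with the mean (bar) and SD (line), n = 5 per group. Open points are libraries without the Xist and Y-gene profile of males. The 5 BPtchD-FLY tumours sit between 77.1 and 149.2 CPM of Ddx3x, all below the BPtch tumours at 560.3 to 773.7.

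The level of Ddx3x left in BPtchD-FLY, as a share of BPtch, was lowest in the tumours. BPtchD-FLY cerebella held 85.3%, 59.5%, 33.9% and 30.3% of the BPtch mean at the ages E16.5, P5, P13 and P30+, and tumours 16.7%. In male-profile libraries, which leave out BPtchD-FLY P5 replicate 2, the shares were 86%, 53.5%, 35.4%, 24.9% and 16.9%. At P13 Ddx3x fell by 1.58 ± 0.13 on the log2 scale (adjusted p = 0.00201), and at P30+ its log2 fold change was -1.73 ± 0.30, which was not called (adjusted p = 0.891). One BPtchD-FLY library at P30+, of 614465 counts and from the same animal as BPtchD-FLY tumour 3, held Xist at 307.6 CPM together with Y-linked genes and Ddx3x at 345 CPM. In male-profile libraries at P30+ the log2 fold change was -1.93 ± 0.27 (adjusted p = 0.926). The difference of the effect between tumours and P13 cerebella was -1.03 ± 0.22 (edgeR adjusted p = 0.315) and was not called. In BPtchD-FLPlus tumours Ddx3x was 693.2, 678.4, 437, 756.4 and 325.6 CPM, which is 88% of the BPtch mean. Against BPtch this was a log2 fold change of -0.17 ± 0.22 (adjusted p = 0.98). BPtchD-FLY tumours lay 2.40 ± 0.23 below BPtchD-FLPlus tumours on this scale (adjusted p = 0.00068).

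Across the other genes no difference passed the test with 5 animals a group. Of 17916 genes tested, edgeR's quasi-likelihood test called Ddx3x, which is 0.00558% of them, and no gene was called higher (0%). At an unadjusted p under 0.05 there were 1786 genes (9.97%), 1029 higher (5.74%) and 757 lower (4.23%). DESeq2, run on the same genes, called 206 (1.15%), 147 higher (0.82%) and 59 lower (0.329%), and limma-voom called 1. For 471 genes (2.63%) the CPM of the 2 groups did not overlap, 201 with BPtchD-FLY higher (1.12%) and 270 lower (1.51%). The median log2 fold change over all genes was 0.01.

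**Figure D2:**
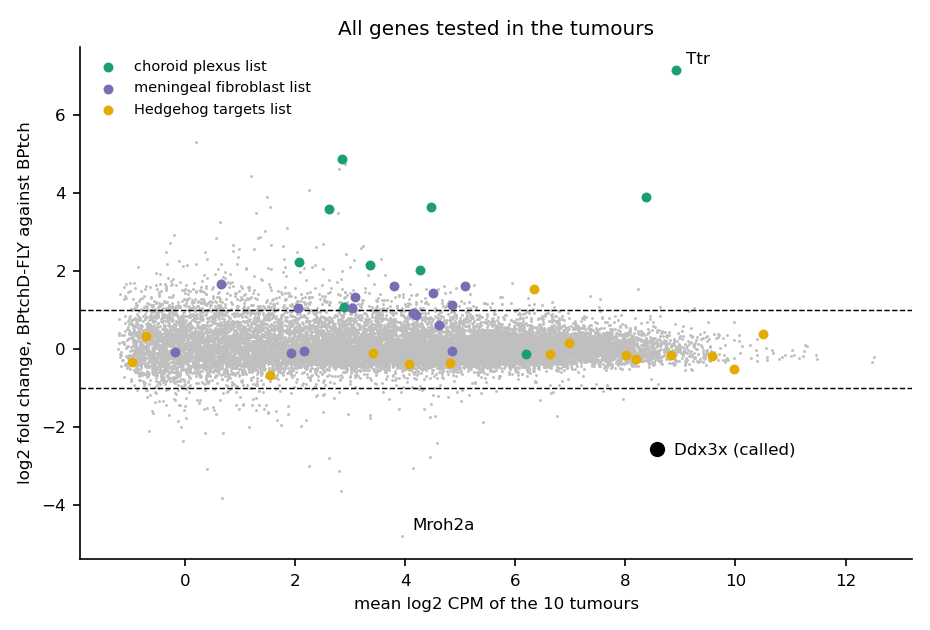
Log2 fold change of BPtchD-FLY against BPtch tumours (vertical) against the mean log2 CPM of the 10 tumours (horizontal), 1 point per gene tested, with members of the choroid plexus, meningeal fibroblast and Hedgehog target lists in colour and dashed lines at a 2-fold change. Ddx3x, at -2.57, is the called gene, and the choroid plexus points lie above most others, up to 7.15 for Ttr.

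The genes of smallest p among those not called by edgeR are given next as a description, because they were picked by that p. DESeq2 called each gene named here and on the lower side below, with a highest adjusted p of 0.0028 (Ttbk1), as it did 1.15% of all genes. The adjusted p-values that follow are those of edgeR. Gtf2ird1, a transcription factor gene, held 77.3, 78.7, 80, 65.9 and 76.5 CPM in BPtch and 182, 140, 175, 134 and 103 CPM in BPtchD-FLY tumours. All BPtchD-FLY values lay above all BPtch values, as for 1.12% of all genes, and the log2 fold change was 0.97 ± 0.15 (adjusted p = 0.166). Without BPtchD-FLY tumour 5 it was called (adjusted p = 0.0326). Celsr1, a cadherin of planar cell polarity, held 8.41 to 19 CPM in BPtch and 30.3 to 45.9 CPM in BPtchD-FLY tumours (1.52 ± 0.24, adjusted p = 0.179). Lamb1, a laminin chain, held 14.8 to 21.2 against 33 to 101 CPM, with the highest value in BPtchD-FLY tumour 5 (1.64 ± 0.27, and 1.31 without that tumour). With the choroid plexus and meningeal scores as covariates the Lamb1 value was 1.08 and those of Gtf2ird1 and Celsr1 were 1.15 and 1.63. Pcdh19, an X-linked protocadherin, held 3.5 to 9.46 against 14.7 to 26.3 CPM (1.62 ± 0.27). Log2 fold changes for the remaining 6 on the higher side were 0.89 for the receptor phosphatase Ptprk, 0.71 for Pmepa1, 0.51 for the histone demethylase Phf2, 0.65 for the kinase Ttbk1, 1.29 for the receptor kinase Met and 1.19 for Crim1. Adjusted p-values of these 10 genes ran from 0.166 to 0.235.

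On the lower side, Mroh2a held 32.2, 15.2, 43.7, 2.47 and 56.4 CPM in BPtch and 2.15, 0.725, 0.724, 0.397 and 1.26 CPM in BPtchD-FLY tumours. The groups did not overlap, as for 1.51% of all genes on the lower side, but BPtch tumour 4 lay close to the BPtchD-FLY range. The log2 fold change was -4.80 ± 0.78 (adjusted p = 0.191). Without BPtch tumour 4 it was -5.10 and was called (adjusted p = 0.025), and with the granule neuron score as a covariate it was -4.95 and was called as well (adjusted p = 0.0265). Pqlc1 held 85.2 to 160 against 40.3 to 64.1 CPM (-1.32 ± 0.21, adjusted p = 0.179). Casp4, an inflammatory caspase, held 3.82 to 7.33 against 1.13 to 2.86 CPM (-1.47 ± 0.27, adjusted p = 0.231). Values were -1.29 for the actin crosslinker Flnc, -0.83 for Bcas1, -0.60 for the X-linked gene Zc4h2, -1.02 for Dpysl4, -1.24 for the synaptic gene Doc2a and -0.43 for the zinc finger gene Zfp62. The predicted RNA C230057A21Rik, outside the rule for named genes and chosen after its values were seen, had the smallest p among genes not called (-1.98 ± 0.25, adjusted p = 0.0641). In BPtchD-FLPlus tumours, compared with the same BPtch tumours, none of these genes was called. On the lower side, Mroh2a, Pqlc1, Casp4, Flnc, Bcas1, Zc4h2, Dpysl4, Doc2a and Zfp62 stood there at 0.08, -0.26, -0.23, 0.39, -0.27, -0.20, -0.17, -0.20 and 0.07. On the higher side, Met at 1.09, Celsr1 at 0.94, Lamb1 at 0.88 and Ptprk at 0.53 had unadjusted p-values of 0.00152, 0.00144, 0.0298 and 0.0468 (edgeR adjusted p = 0.977 each). Gtf2ird1, Pcdh19, Pmepa1, Phf2, Ttbk1 and Crim1 stood at 0.33, -0.31, 0.12, 0.16, 0.22 and 0.56.

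What the spread between tumours leaves out was read from each gene's 95% interval, which is the log2 fold change ± 2.2 standard errors. For 12361 genes (69%) the interval lay inside a 2-fold change in both directions, and for 6273 (35%) inside a 1.5-fold change. A 2-fold rise lay outside the interval of 14020 genes (78.3%) and a 2-fold fall outside that of 15454 (86.3%). The median distance from the estimate to either bound was 0.502 on the log2 scale, a 1.42-fold change, with quartiles of 0.339 and 0.759. The intervals are per gene and unadjusted. For 803 genes the interval reached past 2-fold on both sides, so their values say little either way. For 729 genes not called the point estimate itself lay past 2-fold. Without 1 tumour in turn, the count of genes with a 2-fold change outside the interval ran from 11349 (without BPtchD-FLY tumour 4) to 12828 (without BPtchD-FLY tumour 5).

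The precision depended on the level of the gene. A 2-fold change lay outside the interval of 15.9% of genes under 1 CPM, 42.2% at 1 to 4 CPM, 65.4% at 4 to 16 CPM, 83.6% at 16 to 64 CPM, 89.7% at 64 to 256 CPM and 90.4% over 256 CPM. For a 1.5-fold change the share rose from 0% under 1 CPM to 63.2% at 64 to 256 CPM and was 50.9% over 256 CPM. For most genes under 4 CPM a 2-fold change stayed inside the interval.

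**Figure D3:**
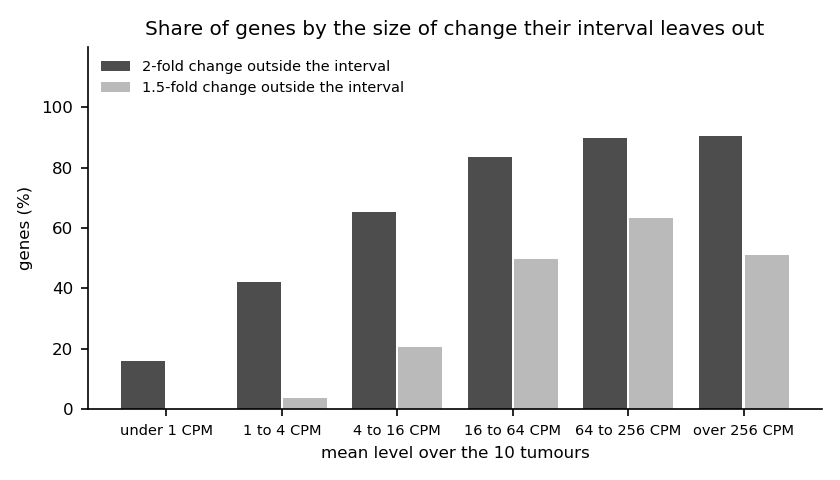
Share of genes tested, in percent, whose 95% interval leaves out a 2-fold change (dark) or a 1.5-fold change (light) in both directions, by mean level over the 10 tumours in CPM. The dark bars rise from 15.9% under 1 CPM to 90.4% over 256 CPM.

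No gene of the Hedgehog pathway was called. None of the 16 pathway components passed the test, against 0.00558% of all genes, and 2 had an unadjusted p under 0.05, both higher, beside 5.74% of all genes. Their median log2 fold change was 0.03, beside 0.01 for all genes, with single components from -0.35 to 1.04. The interval of 11 of the 16 lay inside a 2-fold change, beside 69% of all genes. Ptch1, the receptor whose allele drives the tumours and a target of the pathway, held 1088, 1063, 547, 880 and 496 CPM in BPtch and 556, 840, 749, 772 and 644 CPM in BPtchD-FLY tumours. The groups overlapped fully (-0.18 ± 0.24, interval from -0.71 to 0.34). The level counts all Ptch1 transcripts and does not show the state of the allele. Gli1, the transcription factor that serves as a readout of Hedgehog output, held 392, 356, 149, 288 and 184 against 146, 256, 349, 299 and 171 CPM (-0.16 ± 0.31, interval from -0.85 to 0.52). Its value had the opposite sign, 0.076, with the choroid plexus score as a covariate, a score that itself differed between the genotypes.

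Among the other components, the transducer Smo was at 0.26, the inhibitor Sufu at -0.03, the factor Gli2 at -0.06, the coreceptor Boc at -0.34 and the ligand trap Hhip at -0.35. The 2 components with an unadjusted p under 0.05 were both higher, Kif7, a kinesin of the primary cilium (8.57 to 14.5 against 12.2 to 21.1 CPM, 0.59 ± 0.20, adjusted p = 0.405), and Gpr161, a ciliary receptor that restrains the pathway (33.9 to 49.9 against 34 to 66.4 CPM, 0.45 ± 0.19, adjusted p = 0.474). The ligand Shh was at 0.32 ± 0.94, a gene under 1 CPM whose interval reached past 2-fold on both sides. The coreceptor Cdon had the highest value, 1.04 ± 0.99, with levels of 1.07 to 18.7 CPM in BPtch and 1.65 to 40.2 CPM in BPtchD-FLY tumours and an interval from -1.15 to 3.23. Without BPtchD-FLY tumour 5, which held its highest level, Cdon was at 0.31, and with the choroid plexus score as a covariate it was at -0.042.

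Of 15 Hedgehog targets, which share members with the components, 0 were called and the median was -0.16. On the lower side 1 had an unadjusted p under 0.05, beside 4.23% of all genes. The interval of 8 of the 15 lay inside a 2-fold change, below the share over all genes (69%). The proliferation factor Mycn was at -0.27, the cyclins Ccnd1 and Ccnd2 at -0.16 and 0.39, the Wnt inhibitor Sfrp1 at -0.51, the survival gene Bcl2 at -0.39 and the homeobox gene Nkx2-2 at -0.67. Igf2, a growth factor, held 110, 6.7, 29.9, 30.8 and 30.5 CPM in BPtch and 59.2, 30.4, 125, 35.2 and 342 CPM in BPtchD-FLY tumours (1.54 ± 0.80, not called). The highest value was again in BPtchD-FLY tumour 5, and with the choroid plexus score as a covariate the Igf2 value was -0.091.

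**Figure D4:**
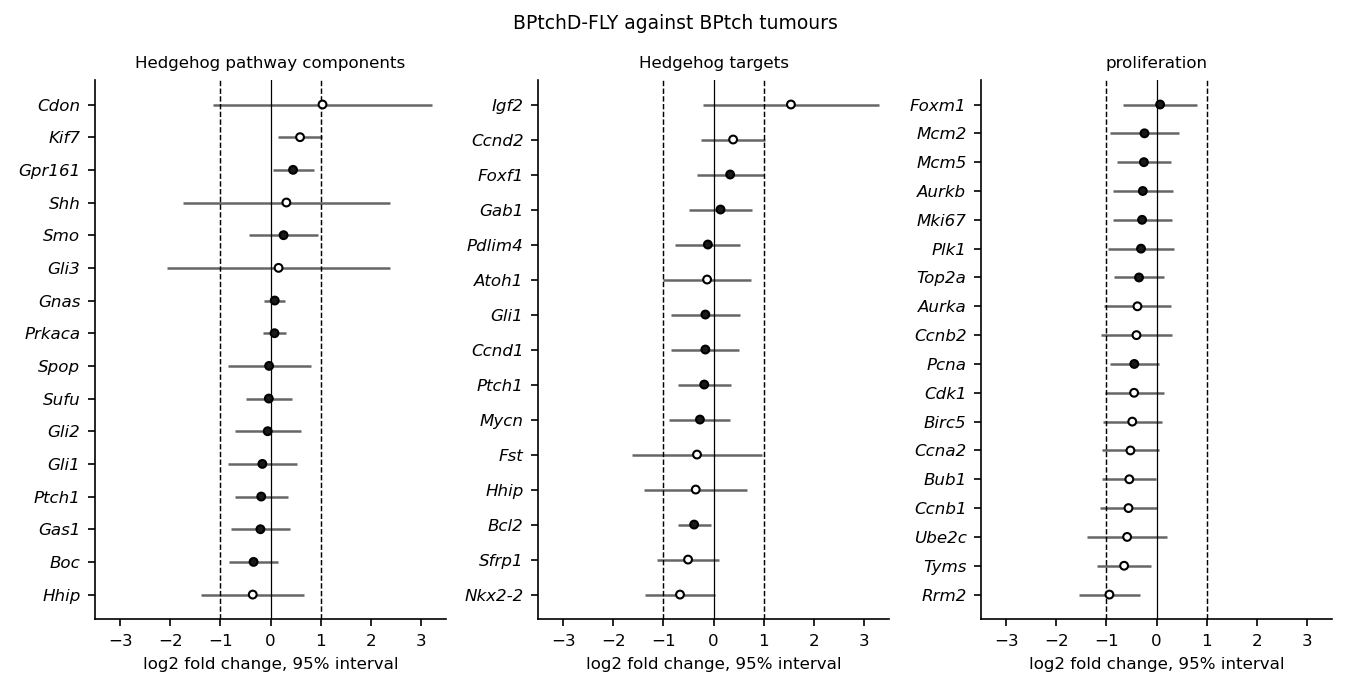
Log2 fold change of BPtchD-FLY against BPtch tumours with its 95% interval for the members of the Hedgehog component, Hedgehog target and proliferation lists, with dashed lines at a 2-fold change and filled points where the interval lies inside it (11 of 16, 8 of 15 and 8 of 18 genes). Ptch1 and Gli1 lie inside, and Rrm2 is the lowest proliferation gene at -0.94.

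Proliferation genes had mostly negative values in BPtchD-FLY tumours, with no gene called. Of 18 members, 17 had a negative value and 3 an unadjusted p under 0.05, all lower (4.23% of all genes), and the median was -0.42 beside 0.01 for all genes. The list summed to 4675, 4864, 2900, 4215 and 2665 CPM in BPtch and 2219, 3039, 3898, 4046 and 1834 CPM in BPtchD-FLY tumours, so that the groups overlapped. Rrm2, a ribonucleotide reductase subunit of S phase, held 190, 198, 105, 147 and 92.3 against 62.6, 96.7, 85, 95.1 and 40.9 CPM (-0.94 ± 0.28, adjusted p = 0.352). Tyms, of thymidine synthesis, was at -0.65, the mitotic genes Bub1 and Ccnb1 at -0.54 and -0.56, the proliferation antigen Mki67 at -0.29 and the topoisomerase Top2a at -0.35. BPtch tumours 3 and 5, which had the lowest proliferation sums of their group, also had its highest granule neuron sums. With the choroid plexus and meningeal scores as covariates the median of the list was -0.09, and without BPtchD-FLY tumour 5 it was -0.27. These scores themselves differed between the genotypes, so content and genotype cannot be told apart by such a fit.

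Granule progenitor genes, which define the cell of origin of Shh medulloblastoma, were present in every tumour and summed to 4032 to 4807 CPM in BPtch and 2435 to 4911 CPM in BPtchD-FLY tumours, with the lowest value in BPtchD-FLY tumour 5. None of the 12 members was called and the median was -0.05. The fate factor Atoh1 was at -0.13, Barhl1 at 0.03, Barhl2 at 0.31 and Pax6 at -0.20. Fabp7, whose promoter drives the recombinase, held 83.6, 50.1, 76.7, 80.4 and 84.6 CPM in BPtch and 33.4, 117, 30.5, 31.7 and 25.9 CPM in BPtchD-FLY tumours. BPtchD-FLY tumour 2 lay above all others and the other 4 below all BPtch tumours (-0.64 ± 0.40, adjusted p = 0.588).

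Mature neuron content ran over a wide range within each genotype. Granule neuron genes summed to 964, 738, 2020, 679 and 1912 CPM in BPtch and 1974, 1676, 995, 854 and 3353 CPM in BPtchD-FLY tumours. All 13 members had a positive value, with a median of 0.59, and 0 were called. Without BPtchD-FLY tumour 5 that median was -0.27. The granule neuron genes Cbln3 (0.85 ± 1.26) and Gabra6 (0.59 ± 1.28) had intervals past 2-fold on both sides, while Rbfox3, the nuclear antigen NeuN, and Neurod1 were at 0.30 ± 0.11 and 0.43 ± 0.41. Purkinje cell genes, which granule progenitors do not express, summed to 131 to 2096 CPM in BPtch and 186 to 5618 CPM in BPtchD-FLY tumours (median 0.83, and -0.31 without BPtchD-FLY tumour 5). The 4 highest Purkinje sums, in BPtch tumours 3 and 5 and BPtchD-FLY tumours 1 and 5, came with the 4 highest granule neuron sums.

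Choroid plexus content of the 10 tumours was highest in 3 of BPtchD-FLY. The list summed to 110, 70.8, 224, 136 and 206 CPM in BPtch and 179, 179, 389, 645 and 7435 CPM in BPtchD-FLY tumours. BPtchD-FLY tumours 3, 4 and 5 lay above all BPtch tumours, and tumours 1 and 2 within their range. Of 16 markers, 10 passed the filter on low counts, 7 had an unadjusted p under 0.05, all higher (5.74% of all genes), and 0 were called. The median of the 10 was 2.91, and 1.06 without BPtchD-FLY tumour 5. No marker of the list was at 0 in all 10 tumours. Ttr, transthyretin, the most abundant choroid plexus transcript, held 4.04, 5.6, 19.1, 0.57 and 5.23 CPM in BPtch and 6.05, 1.69, 181, 329 and 4144 CPM in BPtchD-FLY tumours (7.15 ± 1.97, adjusted p = 0.332). Enpp2, Kl and the bicarbonate transporter gene Slc4a5 followed the same tumours, at 3.89, 3.64 and 4.88. Without BPtchD-FLY tumour 5 Ttr was at 4.25, Enpp2 at 1.27, Kl at 1.27 and Slc4a5 at 1.85. Otx2, a homeobox gene of choroid plexus that Shh medulloblastoma cells can also express, did not, at 44.9, 23.4, 111, 78.6 and 125 against 109, 104, 35.3, 53.5 and 44.5 CPM (-0.12 ± 0.46). In BPtchD-FLPlus tumours the list summed to 99.8 to 765 CPM.

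Meningeal fibroblast content was shifted less and in the same 3 tumours. The list summed to 219, 90.2, 128, 190 and 132 CPM in BPtch and 169, 139, 310, 340 and 482 CPM in BPtchD-FLY tumours. Of 16 markers, 15 were tested, 8 had an unadjusted p under 0.05, all higher (5.74% of all genes), and 0 were called, with a median of 1.05 (0.79 without BPtchD-FLY tumour 5). Collagen genes led the list, with Col1a1 at 1.61 ± 0.43, Col1a2 at 1.44 ± 0.34 and Col3a1 at 1.62 ± 0.41 (adjusted p from 0.305 to 0.32). Of these, Col1a2 did not overlap between the groups, at 10.6 to 14.5 against 15.9 to 67 CPM, as for 1.12% of all genes on the higher side. The matrix gene Dcn was at 1.12 ± 0.47. DESeq2 called the 3 collagen genes higher, as it did 0.82% of all genes. Ependyma genes, of which 4 of 10 were tested, summed to 5.86 to 21.9 CPM in BPtch and 9.09 to 94.5 CPM in BPtchD-FLY tumours.

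**Figure D5:**
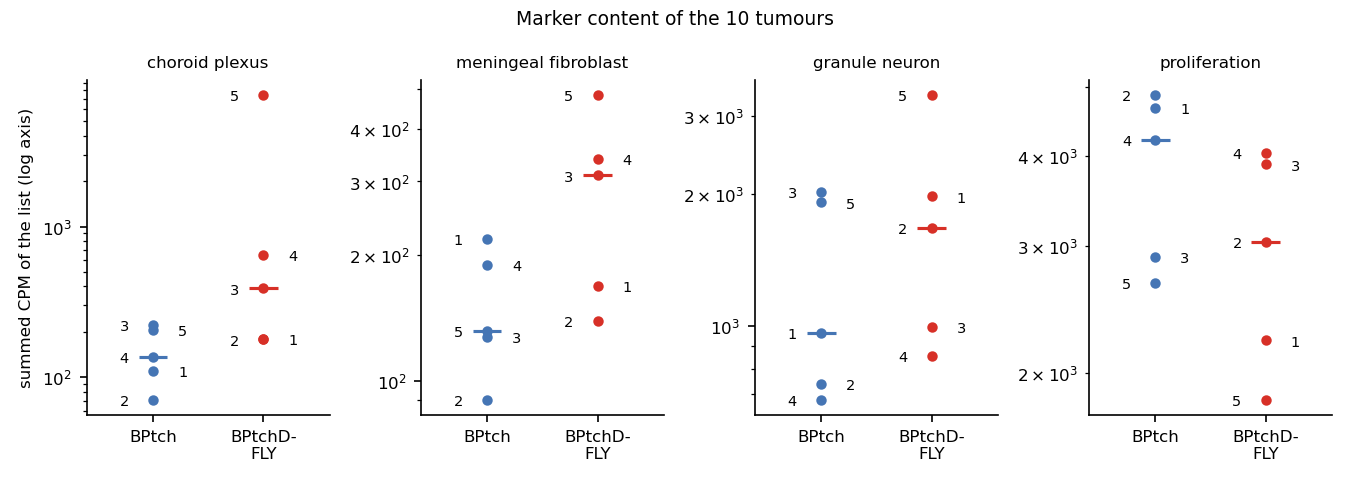
Summed CPM (log axis) of the choroid plexus, meningeal fibroblast, granule neuron and proliferation lists in each tumour, with the replicate number beside each point and the group median as a bar. BPtchD-FLY tumours 3, 4 and 5 hold the highest choroid plexus and meningeal sums, and tumour 5 also the highest granule neuron and the lowest proliferation sum.

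Ddx3x kept its call whatever content score entered the fit. With the choroid plexus score (the mean log2 CPM of the list) as a covariate Ddx3x was at -2.76, with the meningeal score at -2.65 and with both at -2.72, and it stayed the 1 gene called in each. The count of genes with a 2-fold change outside the interval was 12361 without covariates and lay between 11067 and 11439 with them. Covariates took the medians of the choroid plexus and meningeal lists to -0.04 and 0.07, as they must, since the scores are made from these lists. The granule neuron score as a covariate, chosen after the values were seen, gave 4 calls, Ddx3x, Mroh2a, C230057A21Rik and Ccdc24, and 13932 such intervals.

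Genes of translation, in which Ddx3x acts, lay near 0. Of 23 DEAD-box and cap-binding translation factors, 22 had an interval inside a 2-fold change and 20 inside a 1.5-fold change, beside 69% and 35% of all genes, in a list whose members are abundant. None was called, 18 had a negative value, and the median was -0.09. The helicase Eif4a1 was at -0.33, the cap-binding protein Eif4e at -0.32 (105 to 149 against 76.2 to 118 CPM, unadjusted p = 0.0447) and the scaffold Eif4g3 at 0.25. All 11 stress granule proteins had an interval inside a 2-fold change, with a median of -0.13. Atxn2, which encodes an RNA-binding protein of these granules, held 72.7 to 91.5 against 100 to 111 CPM (0.36 ± 0.09, edgeR adjusted p = 0.311). The groups did not overlap, as for 1.12% of all genes on the higher side. DESeq2 called Atxn2 higher (adjusted p = 0.0375), as it did 0.82% of all genes. Of the 14 genes of the integrated stress response, 2 had an unadjusted p under 0.05, both higher (5.74% of all genes). The 14 genes had a median of 0.13 and 6 intervals inside a 2-fold change. Among them the factor Atf4 was at -0.13, the phosphatase subunit Ppp1r15a at 0.35 ± 0.15 and the cystine transporter Slc7a11 at 1.23 ± 0.48, whose highest value, 41.5 CPM, came from BPtchD-FLY tumour 5.

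Innate immune genes showed no call by edgeR. Of 13 inflammasome and pyroptosis genes tested, 4 had an unadjusted p under 0.05, all lower (4.23% of all genes), and the median was -0.27. They were Casp4, Casp1 (-0.93 ± 0.31), the adaptor Pycard (-0.95 ± 0.37) and the cytokine Il1a (-0.65 ± 0.26). Levels of the last 3 were 3.71 CPM or less in every tumour. Microglia and macrophage markers, whose cells express these genes, had a median of -0.33 and 0 unadjusted p-values under 0.05, and summed to 542 to 1003 CPM in BPtch and 354 to 687 CPM in BPtchD-FLY tumours, with the lowest sum in BPtchD-FLY tumour 5. The part of microglial content in these values was not tested. DESeq2 called Casp4 lower among the inflammasome genes, as it did 0.329% of all genes. Of 20 genes of RNA sensing and the interferon response, 0 had an unadjusted p under 0.05 and the median was -0.06, with Eif2ak2, the RNA-activated kinase PKR, at 0.55 ± 0.27.

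Factors of hindbrain position and the rhombic lip, the germinal zone of granule progenitors, had mostly positive values. Of 10 tested, 5 had an unadjusted p under 0.05, all higher (5.74% of all genes), 0 were called, and the median was 0.64. En1, a homeobox gene of the midbrain and cerebellum boundary, held 3.01, 0.162, 3.83, 5.02 and 0.995 CPM in BPtch and 17.3, 23.5, 10.9, 18.7 and 8.06 CPM in BPtchD-FLY tumours. The groups did not overlap, as for 1.12% of all genes on the higher side (2.60 ± 0.68, adjusted p = 0.311). With both content scores as covariates the En1 value was 2.87. Its partner En2 held 43.6 to 61.8 against 70.9 to 108 CPM (0.64 ± 0.15, adjusted p = 0.305). Eomes, of unipolar brush cells, was at 1.88 ± 0.69, highest in BPtchD-FLY tumours 1 and 2, and Msx1, of dorsal midline tissue, at 2.57 ± 0.82, highest in tumour 5. Both content scores as covariates put En2, Eomes and Msx1 at 0.37, 2.15 and 0.34, and the list median at 0.52. Without BPtchD-FLY tumour 5 Msx1 was at 1.24. DESeq2 called En1 and En2 higher (0.82% of all genes). For BPtchD-FLPlus against BPtch tumours, En1 was also among the 11 of 18373 genes that DESeq2 called, so a difference in En1 was not particular to BPtchD-FLY tumours. None of 16 Hox genes passed the filter on low counts.

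Among glia, oligodendrocyte lineage genes split. Early lineage members had negative values, with Olig1 at 79.5 to 119 against 47.4 to 79.2 CPM (-0.62 ± 0.15, adjusted p = 0.305). The growth factor receptor Pdgfra was at -0.91 ± 0.26 and Sox10 at -0.70 ± 0.27. These 3 were the members of the list with an unadjusted p under 0.05, all lower (4.23% of all genes). The list of 12 had a median of 0.26, which turned to -0.26 without BPtchD-FLY tumour 4, to -0.10 without BPtchD-FLY tumour 5 and to -0.93 with both content scores as covariates. DESeq2 called Olig1 lower (0.329% of all genes). Astroglia genes had a median of 0.38 and endothelial and mural genes one of 0.33, with 0 calls each. Without BPtchD-FLY tumour 5 these medians were 0.0024 and 0.11, and with both content scores as covariates -0.41 and 0.03. Wnt targets had 0 calls among 13 tested, a median of 0.21, and 2 higher and 1 lower at an unadjusted p under 0.05. Over all genes the shares at that threshold were 5.74% higher and 4.23% lower. Antigen presentation genes (13, median -0.14), p53 targets (14, median -0.07) and immediate early genes (11, median -0.27) had 0 calls and at most 1 unadjusted p under 0.05 in either direction. Of the 8 genes with an X and a Y copy, 7 were tested. Apart from Ddx3x none was called, with Kdm5c at -0.06 and Kdm6a at -0.03. The X-linked neighbour Cask, counted among genes within 1 Mb of Ddx3x, held 94.1 to 117 against 103 to 223 CPM (0.61 ± 0.18, adjusted p = 0.363).

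The same test was run on BPtchD-FLPlus tumours and on cerebella as context. BPtchD-FLPlus against BPtch tumours gave 4 calls (0.0218% of 18373 genes), the Y-linked genes Uty, Ddx3y, Eif2s3y and Kdm5d, all lower in the female group. Without 1 library in turn this count ran from 0 (without BPtchD-FLPlus tumour 3) to 6 (without BPtch tumour 1). It was 1 without BPtch tumour 2 or 4, BPtchD-FLY tumour 1 or BPtchD-FLPlus tumour 1, 2, 4 or 5, and 2 without BPtchD-FLY tumour 2 or 3. BPtchD-FLY against BPtchD-FLPlus tumours gave 11 calls (0.0599%), 6 higher (0.0327%) and 5 lower (0.0272%), which are Ddx3x, the same 4 Y-linked genes, Pcdh19, Zfp62, Slfn9, Slfn10-ps, Kcnt2 and C230057A21Rik. Without 1 library in turn it ran from 5 (without BPtchD-FLPlus tumour 1) to 14 (without BPtch tumour 1 or 5, which share the fit), and it was 7 without BPtchD-FLPlus tumour 5. Pcdh19 rose by 1.93 and Zfp62 fell by 0.51 on the log2 scale there. These comparisons share the BPtchD-FLY or BPtch libraries with the main one, and they differ in sex. At E16.5, BPtchD-FLY against BPtch cerebella gave 4 calls (0.0217% of 18429), all higher and all predicted genes or RNAs (E230020A03Rik, Gm38340, C030005K06Rik and ENSMUSG00000095041), 0 to 4 calls without 1 library in turn, and 28 in male-profile libraries (2 against 5). At P5 the same comparison gave 3250 calls (17.5% of 18609), 940 higher (5.05%) and 2310 lower (12.4%). That count was 0 without BPtchD-FLY P5 replicate 2, the library that went against its label, and also without BPtch replicate 2, 3 or 4 or BPtchD-FLY replicate 1, 3 or 5. It was 3558 without BPtchD-FLY replicate 4, 5161 without BPtch replicate 5 and 6216 without BPtch replicate 1. In male-profile libraries (3 against 4) it was 1, the gene Tfap2d, with 6998 genes at an unadjusted p under 0.05. Ddx3x was not among the calls at P5 (-0.84 ± 0.28, adjusted p = 0.0579), and without BPtchD-FLY replicate 2 it was at -1.15 ± 0.21 (adjusted p = 0.0583). At P13 the comparison gave 2 calls (0.0108% of 18597), Ddx3x and Phpt1, both lower. In male-profile libraries, which leave out both P14 titles, Ddx3x was the 1 call (-1.49 ± 0.15, adjusted p = 0.0361). Ddx3x was called without each of the 10 libraries in turn, Phpt1 only without BPtch replicate 2 (7 calls in all) and without BPtchD-FLY replicate 5 (2 calls). At P30+ the cerebella gave 0 calls, with 494 genes at an unadjusted p under 0.05 (2.7% of 18298) and 14 calls by DESeq2. The test of the difference between the tumour effect and the P13 effect gave 0 calls, with 1892 genes at an unadjusted p under 0.05 (9.62% of 19667) and 49 calls by DESeq2. It gave 1 call, a different gene each time, without BPtch tumour 3 (Fgf10), BPtch tumour 4 (Mroh2a) and BPtchD-FLY tumour 1 (Tbx1). Gtf2ird1, Celsr1 and Mroh2a stood at 0.22, 1.08 and -0.27 in P13 cerebella and at 0.19, 0.68 and -4.84 in P30+ cerebella, of which some come from the same animals as the tumours.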

How the data were processed

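RNA of whole tumours and cerebella was sequenced and, per the submitters' processing notes, mapped by HISAT2 (build GRCm38) and summed per gene by featureCounts. Not given in the sources used here were tool versions, annotation and strand setting. The deposited table holds the authors' raw counts for 32075 genes in 257 libraries. Groups came from the labels of genotype, age and tissue.

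Counts were modelled with edgeR 4.0.16 (R 4.3.3): TMM, filterByExpr (minimum count 10, total 15), the 2-sided quasi-likelihood F-test, and Benjamini-Hochberg adjustment over all genes tested. A gene under an adjusted p of 0.05 is called. The ± of a fold change is its standard error (fold change on the log2 scale divided by the root of F). CPM use library totals without TMM. Positions came from GENCODE M21, which 31711 gene IDs matched. The script was tested on simulated data with 200 changed genes and a dispersion (edgeR's measure of the spread between libraries) of 0.05. The common dispersion of the 10 tumours was 0.139, so that test does not show how calls and intervals hold at their spread.

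The rule for named genes takes the model genes (Ddx3x, Ddx3y, Xist, Ptch1, Gli1, Fabp7), the 10 genes of smallest p per direction where fewer than 5 are called (mean log2 CPM of at least 1, no predicted genes), up to 4 members of each list by adjusted p, and the choroid plexus, ependyma and meningeal lists. Further list members, Shh, Kdm5c, Kdm6a and Cask were added after their values were seen. Members and lists were chosen with earlier results of these data known. Some list members are not reported here. A male profile means at least 3 Y-linked genes over 5 CPM and Xist under 100 CPM. A female profile means none of these Y-linked genes over 5 CPM, whatever the level of Xist. Also run were limma-voom (3.58.1), DESeq2 1.42.0, edgeR with DESeq2's size factors, no filter, BPtchD-FLPlus tumours in the fit, content scores as covariates, male-profile libraries only, the order of listing or the replicate number as a block, and each library left out.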

Additional observations from a re-analysis of the deposited data

Results flagged for a closer look

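In 11 of 228 groups of 5 values examined (4.82%) one tumour lay far from the other 4 of its genotype, by the gap to its nearest neighbour relative to the range. Chance gives about 1 in 20. In BPtch tumours, the female-profile tumour 1 held 0.109 CPM of Ddx3y and 0.437 CPM of Uty, and 39.5 CPM of Zc4h2 against 46.3 to 48.5. BPtch tumour 2 held 1.13 CPM of Casp1 against 2.98 to 3.39 and 50.1 CPM of Fabp7 against 76.7 to 84.6, and BPtch tumour 4 held 65.9 CPM of Gtf2ird1 against 76.5 to 80. In BPtchD-FLY tumours, tumour 1 held 212 CPM of Dpysl4 against 115 to 130, tumour 2 held 117 CPM of Fabp7 against 25.9 to 33.4, and tumour 3 held 21.7 CPM of Uty against 31.8 to 34.2. BPtchD-FLY tumour 5 held 108 CPM of En2 against 70.9 to 77.3, and its microglia and macrophage list summed to 354 CPM against 642 to 687.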

How the results depend on the processing

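Ddx3x kept its call and direction under every alternative and without each tumour (log2 fold change -2.71 to -2.46 without 1 tumour). The count of intervals inside a 2-fold change ran from 11349 to 12828 without 1 tumour. DESeq2 called 206 genes in the tumours in place of 1, 11 for BPtchD-FLPlus against BPtch, 267 for BPtchD-FLY against BPtchD-FLPlus, 111 at P13, 14 at P30+, 5218 in place of 3250 at P5, 71 in place of 4 at E16.5 and 49 for the difference between tumours and P13. In the tumours, BPtchD-FLPlus in the fit gave 2 calls and the granule neuron score 4. Without 1 library the counts of calls ran from 1 to 2 in the tumours, 0 to 6 for BPtchD-FLPlus against BPtch, 5 to 14 for BPtchD-FLY against BPtchD-FLPlus, 1 to 7 at P13, 0 to 0 at P30+, 0 to 6216 at P5, 0 to 4 at E16.5 and 0 to 1 for the difference. Without the low-count filter P13 gave 1 call. Male-profile libraries gave 1 call at P5 and 28 at E16.5. With the replicate number as a block the tumours gave 1 call (Ddx3x -2.60, adjusted p = 0.0429), BPtchD-FLPlus against BPtch 0, BPtchD-FLY against BPtchD-FLPlus 7, P13 1, P5 987, E16.5 0 and the difference 1. The numbers do not pair the tumours: same-numbered tumours correlated at -0.67 to 0.69, 3 of 5 pairs over 0.1, and 1 tumour correlated best with its own number. The causes of these shifts were not tested.

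Of 134 genes of the naming rule 30 changed sign under some alternative, and of 82 genes with a fold change in the text 21 did, none of them called. Shh, Kdm5c, Kdm6a and C230057A21Rik were not among the 82 and were not followed through the alternatives. With the choroid plexus score as a covariate Gli1 was at 0.076, Gli2 at 0.076, Sufu at 0.35, Mycn at 0.10, Ccnd1 at 0.042, Atoh1 at 0.15, Pax6 at 0.14, Otx2 at 0.10, Atf4 at 0.046, Igf2 at -0.091, Cdon at -0.042, Kl at -0.068, Enpp2 at -0.22, Slc4a5 at -0.51, Cbln3 at -0.98 and Gabra6 at -1.63. With the meningeal score Igf2 was at -0.30, Cdon at -0.47, Slc4a5 at -0.73, Sufu at 0.26, Gli2 at 0.031, Pax6 at 0.13, Cbln3 at -1.68, Gabra6 at -2.25 and Dcn at -0.019. With both scores Gli1 was at 0.066, Gli2 at 0.071, Sufu at 0.35, Mycn at 0.057, Ccnd1 at 0.0060, Atoh1 at 0.070, Pax6 at 0.14, Otx2 at 0.020, Atf4 at 0.0068, Igf2 at -0.19, Cdon at -0.45, Enpp2 at -0.19, Slc4a5 at -0.69, Cbln3 at -1.69 and Gabra6 at -2.17. With the granule neuron score Gli1 was at 0.0050, Sufu at 0.050, Gli2 at 0.064, Ccnd1 at 0.013, Atoh1 at 0.038, Cbln3 at -0.44 and Gabra6 at -0.57. With male-profile tumours only, which leaves out BPtch tumour 1, Gli1 was at 0.0047, Gli2 at 0.042, Hhip at 0.16, Uty at -0.19 and Xist at 0.30. Barhl1 was at -0.070 with limma-voom and at -0.074 with the replicate block. Without 1 tumour in turn the values ran from -3.09 to 0.30 for Xist, -0.32 to 0.0047 for Gli1, -0.19 to 0.29 for Uty, -0.12 to 0.12 for Sufu, -0.28 to 0.077 for Gli2, -0.57 to 0.16 for Hhip, -0.33 to 0.0026 for Ccnd1, -0.35 to 0.19 for Atoh1, -0.15 to 0.23 for Barhl1, -0.58 to 1.51 for Cbln3, -1.13 to 1.32 for Gabra6, -0.19 to 0.016 for Atf4 and -0.36 to 0.12 for Otx2.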

Other observations

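Chromosome medians differed between tumours of the same genotype. For genes with a mean log2 CPM over 3, each tumour's log2 CPM was centred on its own median and on the gene's median over the 15 Shh tumours. The 569 genes of chromosome 6 had a median of -0.28 in BPtchD-FLY tumour 1, -0.26 in BPtchD-FLY tumour 5, -0.25 and -0.23 in BPtch tumours 5 and 3 and up to 0.14 in BPtch tumour 2 and BPtchD-FLY tumour 4. The 628 genes of chromosome 8 had a median of 0.26 in BPtch tumour 1 and 0.23 in BPtchD-FLY tumour 2, against -0.19 to 0 in the other 8 tumours compared. The 539 genes of chromosome 17 stood at 0.25 in BPtchD-FLY tumour 2 and at 0.41 in BPtchD-FLPlus tumour 2, which also had 0.40 on chromosome 8. BPtchD-FLY tumour 5 was below 0 on every chromosome shown, from -0.26 to -0.05. Tumours 3 and 5 of BPtch and 1 and 5 of BPtchD-FLY, the low ones on chromosome 6, also had the highest granule neuron sums. Whether the values of chromosomes 6, 8 and 17 follow from DNA copies was not tested.

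Single Y-linked genes were low in single male-profile tumours. BPtch tumour 3 held 18.4 CPM of Ddx3y and 14.6 CPM of Kdm5d beside 87.6 CPM of Eif2s3y, and the cerebellum of the same animal held 7.70 and 6.35 CPM of the first 2. BPtch tumour 5 held 11.9 CPM of Kdm5d, and BPtchD-FLY tumour 4 held 10.2 CPM of Eif2s3y, against 58.2 to 77.3 CPM of Kdm5d in the male-profile tumours other than BPtch 3 and 5 and 66.9 to 93.8 CPM of Eif2s3y in those other than BPtchD-FLY 4.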
